A study of Homo sapiens with 11 samples.

Results

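Aminoacyl-tRNA synthetases are the enzymes that join each amino acid to its tRNA. Their genes were taken from the count table as the protein-coding rows whose symbol is a one-letter amino acid code followed by ARS, with or without a final 1, 2 or 3, together with EPRS1, FARSA and FARSB. The rule found 38 of 60676 rows. Of these, 21 genes serve the cytosol and 17, with the suffix 2, serve the mitochondrion. All 38 genes passed the filter on low counts.

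The study followed how gene expression changes in hypoxia in RWPE1, an immortalized line of human prostate epithelial cells. Cells were left in normoxia without treatment (0 h, 3 libraries) or kept at 1% O2 for 6 h (3 libraries), 12 h (3 libraries) or 24 h (2 libraries). Another 24 h library was not analysed here. The medium of the hypoxic cells also held 10 mM HEPES, so that each comparison with 0 h holds a change of both oxygen and buffer. All groups are the same line in the same serum-free keratinocyte medium, and the labels do not say whether replicates were separate cultures. The p-values therefore measure the spread between libraries, which may be technical.

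Translation in the cytosol and translation in the mitochondrion use separate sets of synthetases, all encoded in the nucleus. GARS1 and KARS1 are exceptions, since each gives rise to a cytosolic and a mitochondrial enzyme, and EPRS1 carries the activities for glutamate and for proline in one chain. Several cytosolic enzymes are held together in the multisynthetase complex by scaffold proteins. An uncharged tRNA can activate the kinase EIF2AK4 (GCN2), and through it the transcription factor ATF4, for which many cytosolic synthetase genes are known targets.

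The libraries held 27496009 to 49488345 counted reads, and 19981 genes were tested. The epithelial markers KRT5 (6077 to 15881 CPM, counts scaled by the effective size of the library), KRT14, TP63, KRT8, KRT18, EPCAM and CDH1 were present in every library, while the luminal genes KLK3 and KLK2 stayed at or below 0.0231 CPM. Scaling factors (TMM) ran from 0.539 in 24 h replicate 2, where 33.7% of counts came from the 50 most abundant genes, to 1.32. When library size alone was used for scaling, the median of all tested genes shifted by -0.32, -0.50 and -0.97 on the log2 scale at 6, 12 and 24 h, against -0.0021, -0.033 and -0.065 with TMM. Changes below are with TMM, and so are relative to most other genes. In bulk RNA, fewer cells of a type and less RNA per cell cannot be told apart.

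The family as a whole did not move in one direction. A gene was called where edgeR's quasi-likelihood test gave a Benjamini-Hochberg adjusted p under 0.05 over all tested genes. Against 0 h, 7 of 38 synthetase genes were higher and 11 lower at 6 h, 10 higher and 12 lower at 12 h, and 13 higher and 9 lower at 24 h. These shares are near the background. Of all tested genes, 52.8% were called at 6 h, 51.2% at 12 h and 61.2% at 24 h. By direction the background was 25.1% higher and 27.7% lower at 6 h, 24.2% and 27.1% at 12 h, and 29.9% and 31.3% at 24 h.

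Of 21 cytosolic genes, 3 were higher and 6 lower at 6 h, 6 higher and 6 lower at 12 h, and 7 higher and 3 lower at 24 h. The 24 h split rested on single libraries, with 6 higher and 7 lower (median -0.045) without replicate 1 and 9 higher and 3 lower (median 0.28) without replicate 2. Their median log2 fold change was -0.048, 0.0031 and 0.15, which became -0.37, -0.47 and -0.77 with library size alone. The mitochondrial genes were divided at every time. Of 17, 4 were higher and 5 lower at 6 h, 4 higher and 6 lower at 12 h, and 6 higher and 6 lower at 24 h, with medians of -0.13, 0.15 and -0.15. Under library size alone these medians were -0.45, -0.32 and -1.08. Scaling by library size alone left 0, 2 and 1 cytosolic genes higher and 7, 6 and 11 lower at the 3 times, and 2, 1 and 1 mitochondrial genes higher and 8, 7 and 12 lower.

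**Figure D1:**
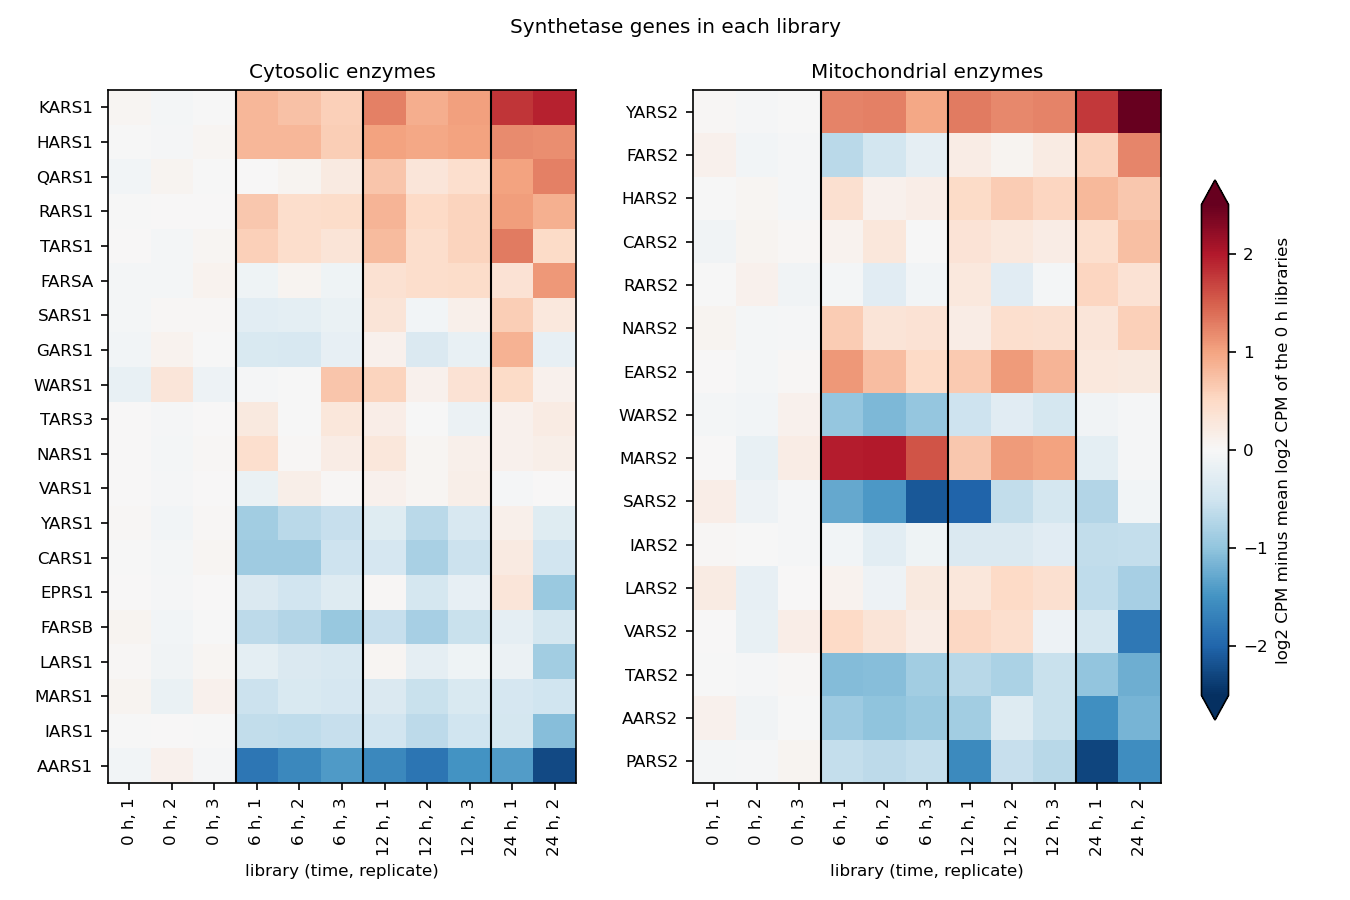
Each row is a synthetase gene and each column a library, coloured by log2 CPM minus the mean log2 CPM of the 0 h libraries, with red above and blue below that mean (the scale ends at 2.5). Rows are ordered by the fitted change at 24 h, from KARS1 to AARS1 among the cytosolic genes and from YARS2 to PARS2 among the mitochondrial genes shown. With library size alone in place of TMM, smaller positive changes turn negative, such as those of FARSA and HARS2 at 24 h.

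Some genes were called in one direction throughout, and some at no time. Called higher at all 3 times were HARS1, KARS1, RARS1 and YARS2, and 6 genes were called lower at all 3 times, among them AARS1, IARS1, MARS1, AARS2 and TARS2. Among all tested genes 14.8% were called higher and 17.9% lower at all 3 times. At none of the 3 times were 9 of 38 genes called, EPRS1, GARS1, LARS1, NARS1, TARS3, VARS1, WARS1 and VARS2 among them, where the background is 21.5%. No synthetase gene was called in both directions against 0 h. The 3 comparisons share the 0 h libraries. With library size alone, of the 4 genes higher throughout only YARS2 was called higher at all 3 times, while the 6 genes lower throughout stayed called lower at each.

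**Figure D2:**
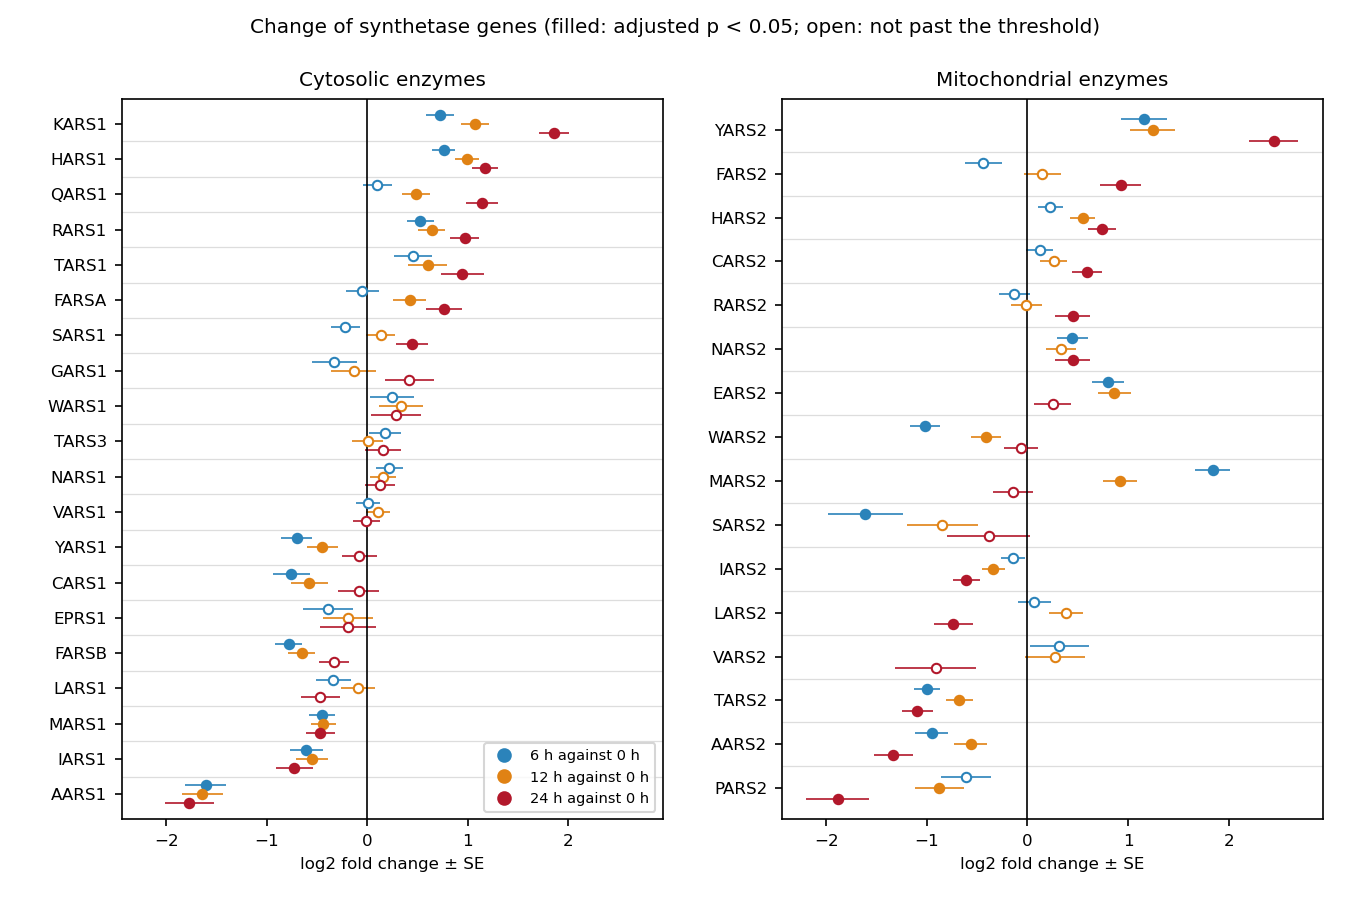
Fitted log2 fold change (points) with its standard error (bars) for the synthetase genes shown at 6, 12 and 24 h against 0 h, with TMM scaling. Filled points passed an adjusted p of 0.05 and open points did not; AARS1 lies between -1.61 and -1.77 at all 3 times, while KARS1 and YARS2 have the highest values of their compartments at 24 h.

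The gene for the cytosolic alanine enzyme, AARS1 (chr16:70251983-70289707 on GRCh38), fell most among the cytosolic genes at every time. Its level was 494, 559 and 512 CPM at 0 h, 148, 169.7 and 197 at 6 h, 169.9, 148 and 185 at 12 h and 197 and 109 at 24 h. Every hypoxic library lay below every 0 h library. The log2 fold change was -1.61 ± 0.21 (SE, n = 3) at 6 h, -1.64 ± 0.21 (SE, n = 3) at 12 h and -1.77 ± 0.24 (SE, n = 2) at 24 h, where edgeR gave adjusted p = 4.74e-05, 5.59e-05 and 5.18e-05. At 24 h it was -1.42 without replicate 2 and -2.31 without replicate 1. Per kilobase of its canonical transcript, AARS1 was the most abundant of the 38 genes at 0 h, at 152 RPKM, and ranked 13 at 24 h, at 44.6 RPKM. Its share of the summed cytosolic synthetase CPM went from 13.4% to 14.9% at 0 h to 3.27% to 6.20% in the hypoxic libraries.

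IARS1, the cytosolic isoleucine enzyme, and MARS1, the cytosolic methionine enzyme, fell by less. IARS1 was at 506, 512 and 506 CPM at 0 h, 332, 329 and 342 at 6 h, 365, 321 and 358 at 12 h and 372 and 243 at 24 h. Every hypoxic library lay below the 0 h libraries, and the log2 fold change was -0.60 ± 0.16 (SE, n = 3) at 6 h, -0.55 ± 0.16 (SE, n = 3) at 12 h and -0.72 ± 0.18 (SE, n = 2) at 24 h, where edgeR gave adjusted p = 0.00711, 0.0132 and 0.00439. The IARS1 value at 24 h was -1.12 without replicate 1 and -0.46 without replicate 2, both called. MARS1 was at 166, 142 and 172 CPM at 0 h, 109.6, 122 and 119 at 6 h, 123, 108 and 123 at 12 h and 118 and 113 at 24 h. It changed by -0.45 ± 0.13, -0.43 ± 0.13 and -0.47 ± 0.14 (log2, SE), with adjusted p = 0.0101, 0.0127 and 0.0134 in edgeR. These calls depend on the 0 h libraries, since without 0 h replicate 3 the values were -0.39, -0.38 and -0.41 and without 0 h replicate 1 the value at 12 h was -0.41, none of which was called. Exons of MARS1 share 355 bases, 5.05% of its exonic sequence, with DDIT3 and 519 bases, 7.38%, with ARHGAP9, both on the other strand. DDIT3, which encodes the stress factor CHOP, went from 81.4, 115 and 89.1 CPM at 0 h to 1.78, 1.82 and 1.38 CPM at 6 h. The libraries were stranded but the strand setting of the counting is not given in the sources used here, and the part of DDIT3 in the MARS1 value was not tested.

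A second set of cytosolic genes fell at 6 and 12 h and was not called at 24 h with TMM. YARS1 (tyrosine) changed by -0.70, -0.45 and -0.077, CARS1 (cysteine) by -0.76, -0.58 and -0.085 and FARSB (the beta subunit of the phenylalanine enzyme) by -0.78, -0.65 and -0.33 on the log2 scale at 6, 12 and 24 h, each called at 6 and 12 h. Library size alone gave -0.94, -0.93 and -1.22 at 24 h, all called lower. The 12 h call of YARS1 was lost in 5 of 11 fits that each left out 1 library (0 h replicates 1, 2 and 3 and 12 h replicates 2 and 3), with values of -0.38 to -0.48. That of CARS1 was lost without 0 h replicate 3 (-0.55) and without 12 h replicate 2 (-0.51). At 24 h CARS1 was -0.53 without replicate 1, which was called, and 0.21 without replicate 2, which was not.

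KARS1, the lysine enzyme of cytosol and mitochondrion (chr16:75627474-75648643), rose most among the cytosolic genes at 12 and 24 h. Its level was 115, 109 and 111 CPM at 0 h, 198, 185 and 169 at 6 h, 268, 208 and 228 at 12 h and 386 and 421 at 24 h. Each later time lay above the one before it, with no overlap between any of the 4 times. The log2 fold change was 0.72 ± 0.14 (SE, n = 3) at 6 h, 1.07 ± 0.14 (SE, n = 3) at 12 h and 1.85 ± 0.15 (SE, n = 2) at 24 h, where edgeR gave adjusted p = 0.000824, 6.60e-05 and 1.88e-06. Library size alone gave 0.40, 0.60 and 0.93, of which those at 12 and 24 h were called. Per kilobase KARS1 rose from rank 10 of 38 at 0 h (56.0 RPKM) to rank 1 at 24 h (203 RPKM).

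HARS1, the cytosolic histidine enzyme, rose with little spread between replicates. It was at 55.6, 54.6 and 57.9 CPM at 0 h, 99.016, 99.9 and 85.8 at 6 h, 112, 110.0 and 112 at 12 h and 128 and 125 at 24 h. The 4 times did not overlap, and the log2 fold change was 0.76 ± 0.12 (SE, n = 3) at 6 h, 0.99 ± 0.12 (SE, n = 3) at 12 h and 1.17 ± 0.13 (SE, n = 2) at 24 h, where edgeR gave adjusted p = 0.000174, 3.59e-05 and 1.07e-05. Library size alone gave 0.44, 0.52 and 0.26, and only the one at 12 h was called. RARS1, the cytosolic arginine enzyme, was at 80.1, 80.9 and 81.2 CPM at 0 h, 128, 110.0 and 112 at 6 h, 145, 113 and 119.5 at 12 h and 166 and 150.4 at 24 h. It rose by 0.53 ± 0.13, 0.64 ± 0.13 and 0.97 ± 0.15 (log2, SE), with adjusted p = 0.00489, 0.00169 and 0.000112 in the edgeR fit. Library size alone took RARS1 to 0.21, 0.17 and 0.069, with no call.

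Other cytosolic genes rose only later in the course. QARS1, the glutamine enzyme, was at 78.9, 87.5 and 83.026 CPM at 0 h, 83.6, 86.7 and 97.2 at 6 h, 135, 103 and 111 at 12 h and 167 and 199.6 at 24 h. The 6 h libraries overlapped those at 0 h, and the later ones lay above both. Its log2 fold change was 0.10 ± 0.14 (not called), 0.49 ± 0.14 (adjusted p = 0.0119) and 1.14 ± 0.15 (adjusted p = 5.20e-05) in the edgeR fit. The call at 12 h was lost without 0 h replicate 1 (0.45) and without 12 h replicate 1 (0.37), and library size alone gave 0.013 and 0.20 at 12 and 24 h. TARS1 (threonine) was called higher at 12 and 24 h (0.60 and 0.95), with 0.43 at 24 h without replicate 1 and 1.28 without replicate 2, and 0.13 and 0.12, not called, with library size alone. The TARS1 call at 12 h needed 0 h replicates 1 and 2 and 12 h replicate 1 (0.50 to 0.60 when any of them was left out).

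FARSA, the alpha subunit of the phenylalanine enzyme, was also called at 12 and 24 h (0.42 and 0.76), but library size alone turned both, to -0.044 and -0.23. The FARSA call at 12 h was lost in 9 of 11 fits without 1 library, in all but those without a 24 h library, and at 24 h the value was 1.02 without replicate 1 and 0.35 without replicate 2. SARS1 (serine) was called at 24 h only, at 0.45, and stood at -0.43 with library size alone and 0.21 without 24 h replicate 1. Its call was lost in that fit, without any of the 0 h libraries and without 12 h replicate 2 (0.21 to 0.46).

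FARSA and FARSB encode subunits of the same enzyme, and their ratio within a library does not depend on scaling. The log2 ratio of FARSA to FARSB in CPM was -0.22, -0.09 and -0.01 at 0 h, 0.44, 0.70 and 0.74 at 6 h, 0.85, 1.16 and 0.90 at 12 h and 0.49 and 1.40 at 24 h. Every hypoxic library lay above every 0 h library.

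**Figure D3:**
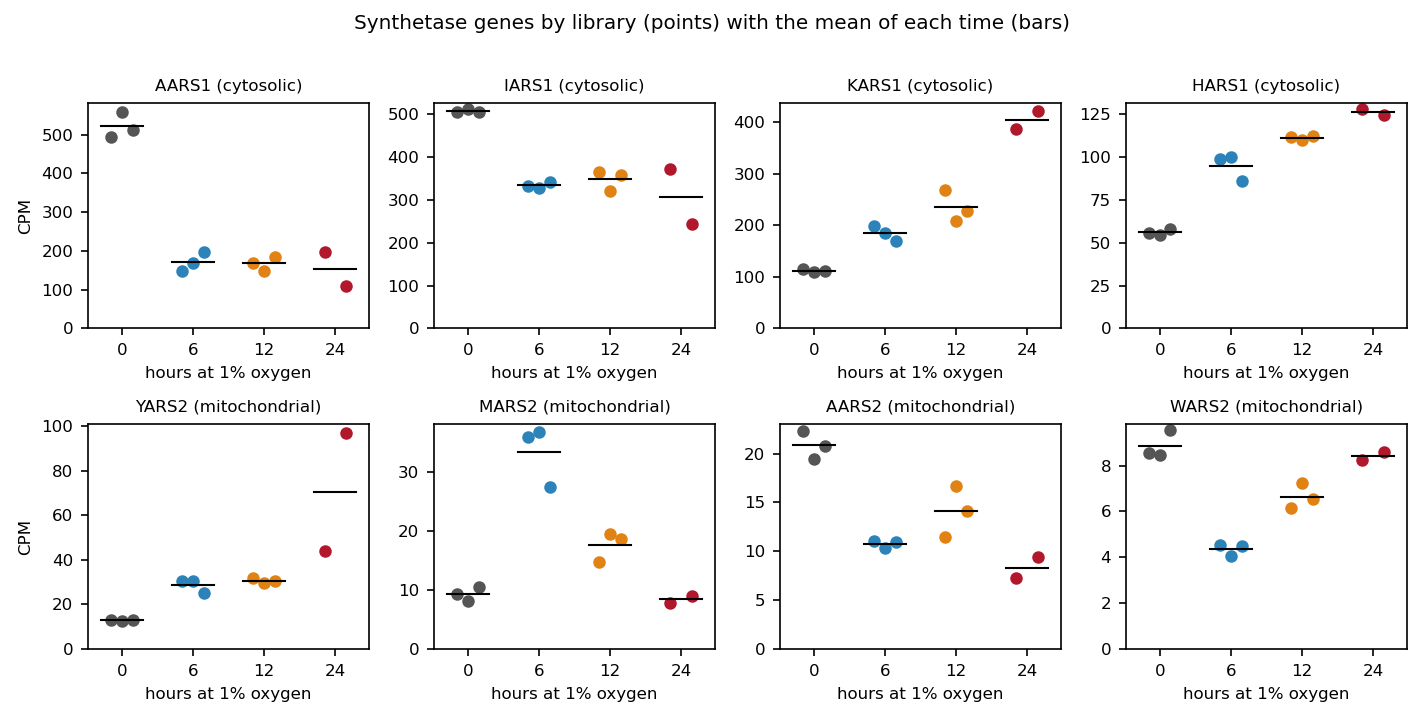
CPM of 8 synthetase genes in every library (points) with the mean of each time (bars), on axes that start at 0. AARS1 and IARS1 sit lower in every hypoxic library, KARS1, HARS1 and YARS2 higher, MARS2 is highest at 6 h and WARS2 lowest at 6 h.

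Several cytosolic genes were not called at any time with TMM. EPRS1 was at 527, 514 and 526 CPM at 0 h, 408, 374 and 415 at 6 h, 536, 385 and 452 at 12 h and 641 and 273 at 24 h. The libraries at 24 h fell on either side of the 0 h range, and the 24 h log2 fold change of -0.19 became -0.99 without replicate 1 (called) and 0.28 without replicate 2. GARS1, the glycine enzyme of both compartments, was at 165, 183 and 171 CPM at 0 h, 132, 131 and 149 at 6 h, 187, 134 and 153 at 12 h and 314 and 149 at 24 h. Its 24 h libraries also stood apart from each other, with a log2 fold change of 0.42 at 24 h, -0.27 without replicate 1 and 0.84 without replicate 2 (called). WARS1, the tryptophan enzyme known for its induction by interferon, was at 157, 219 and 162 CPM at 0 h, 174, 176 and 287 at 6 h, 260.0, 191 and 228 at 12 h and 247 and 190.4 at 24 h. Its spread within a time was wide, and the groups overlapped at all 3 times. TARS3, a cytosolic threonine enzyme related to TARS1, had low counts, at 6.66, 6.48 and 6.66 CPM at 0 h, 7.86, 6.52 and 7.98 at 6 h, 7.37, 6.55 and 5.94 at 12 h and 7.06 and 7.63 at 24 h. LARS1, NARS1 and VARS1 had log2 fold changes between -0.47 and 0.22, none of which was called. LARS1 (leucine) at 24 h was -0.93 without replicate 1, which was called. Of the genes in this paragraph, EPRS1 (-0.98), LARS1 (-1.30), NARS1 (-0.79), TARS3 (-0.77) and VARS1 (-0.92) were called lower at 24 h under library size alone.

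The cytosolic genes usually listed as ATF4 targets and the others were counted apart. Of 13 listed genes (AARS1, CARS1, EPRS1, GARS1, IARS1, LARS1, MARS1, NARS1, SARS1, TARS1, VARS1, WARS1, YARS1), 0 were higher and 5 lower at 6 h, 1 higher and 5 lower at 12 h, and 2 higher and 3 lower at 24 h. Their medians were -0.34, -0.13 and -0.077. Of the other 8 cytosolic genes, 3 were higher and 1 lower at 6 h, 5 higher and 1 lower at 12 h, and 5 higher and 0 lower at 24 h, with medians of 0.14, 0.46 and 0.87. Under library size alone the medians of the listed genes were -0.66, -0.61 and -0.93 and those of the others -0.18, -0.015 and -0.080. Of all tested genes, 25.1%, 24.2% and 29.9% were called higher and 27.7%, 27.1% and 31.3% lower at the 3 times with TMM. The lists were not tested against each other or against this background.

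Genes of the ATF4 stress response outside the family were more often lower than higher. Of 20 such genes, 1 was higher and 11 lower at 6 h, 2 higher and 11 lower at 12 h, and 5 higher and 11 lower at 24 h, with medians of -0.67, -0.67 and -0.58. Library size alone gave 1, 1 and 0 higher and 14, 13 and 13 lower. With TMM, 24.2% to 29.9% of all tested genes were called higher at the 3 times and 27.1% to 31.3% lower. ATF4 itself had 204, 216 and 212 CPM at 0 h, 153, 176 and 169 at 6 h, 246, 199 and 222 at 12 h and 417 and 314 at 24 h, and was called higher at 24 h (0.79), where library size alone gave -0.075. The pseudokinase gene TRIB3 fell (-1.73, -1.74 and -0.47 on the log2 scale), and so did DDIT3 (-5.85, -3.03 and -2.73). Lower at all 3 times were also ASNS, which makes asparagine (-1.32, -1.10 and -1.65), the glutathione-degrading CHAC1 (-3.14, -2.77 and -3.24), SESN2 (-1.79, -2.06 and -2.11) and SLC7A11, the cystine transporter (-2.39, -3.02 and -3.36). Higher at 24 h were SHMT2 (0.97) and PHGDH (0.80), enzymes of glycine and serine synthesis, which library size alone left uncalled at 0.023 and -0.17. STC2, of the same 20 genes, was at 81.1, 59.6 and 86.1 CPM at 0 h and 234, 257 and 198 CPM at 6 h. For STC2, library size alone gave 1.28, 0.87 and 0.37 at the 3 times, called higher at 6 and 12 h. Among the kinases that act on eIF2, EIF2AK4 fell (-0.93, -0.46 and -0.91) and EIF2AK3 (PERK) was higher at 6 and 12 h (1.22 and 0.74), of which only the 6 h value was called with library size alone.

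ATF4 binds with C/EBP partners at a composite element whose core is TGATGNAA. RefSeq promoter windows (GRCh38.p14, 250 bases before to 50 bases from the start on) were found for 30 of the 38 genes. TGATGNAA, read on both strands, occurred in 6 of 16 cytosolic and 1 of 14 mitochondrial windows, and in 3.67% of 27305 promoters in the table. The 7 matches are shown because they set out which synthetase genes hold this element. Each stretch has 80 bases, 5′ to 3′ on the strand of the gene, with TGATGNAA or its reverse complement in capitals.
AARS1 (chr16:70289650-70289729, minus strand): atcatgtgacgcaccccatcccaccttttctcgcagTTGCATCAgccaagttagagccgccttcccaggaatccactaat
CARS1 (chr11:3057394-3057473, minus strand): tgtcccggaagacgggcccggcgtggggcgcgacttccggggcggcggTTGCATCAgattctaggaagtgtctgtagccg
IARS1 (chr9:92293668-92293747, minus strand): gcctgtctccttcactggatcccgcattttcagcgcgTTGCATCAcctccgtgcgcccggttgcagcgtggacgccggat
MARS1 (chr12:57488018-57488097, plus strand): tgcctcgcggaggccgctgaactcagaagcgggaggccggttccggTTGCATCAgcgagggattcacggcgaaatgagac
NARS1 (chr18:57621807-57621886, minus strand): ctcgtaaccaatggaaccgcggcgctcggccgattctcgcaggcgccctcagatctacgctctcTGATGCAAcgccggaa
TARS1 (chr5:33440915-33440994, plus strand): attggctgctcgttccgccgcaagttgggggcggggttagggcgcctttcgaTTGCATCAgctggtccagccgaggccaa
YARS2 (chr12:32756051-32756130, minus strand): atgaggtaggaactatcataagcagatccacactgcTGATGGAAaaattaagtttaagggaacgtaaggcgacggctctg

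The 7 genes went in either direction. Of these, AARS1, IARS1 and MARS1 were called lower at all 3 times, CARS1 at 6 and 12 h, YARS2 was called higher at all 3 times, TARS1 at 12 and 24 h (not with library size alone), and NARS1 (asparagine) was not called (0.22, 0.16 and 0.13). A match of letters does not show that a factor binds there.

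On the mitochondrial side, YARS2, the tyrosine enzyme of mitochondria (chr12:32727490-32755897), rose most at 12 and 24 h. It was at 13.2, 12.6 and 12.9 CPM at 0 h, 30.4, 30.7 and 25.3 at 6 h, 31.9, 29.5 and 30.4 at 12 h and 44.1 and 96.8 at 24 h. All hypoxic libraries were above all 0 h libraries, and 24 h replicate 2 stood above 24 h replicate 1. The log2 fold change was 1.16 ± 0.22 (SE, n = 3) at 6 h, 1.25 ± 0.22 (SE, n = 3) at 12 h and 2.45 ± 0.25 (SE, n = 2) at 24 h, where edgeR gave adjusted p = 0.000944, 0.000682 and 6.48e-06. Without 24 h replicate 2 it was 1.76 at 24 h and without replicate 1 it was 2.85, each called, and library size alone gave 0.84, 0.78 and 1.41, called at all 3 times. KARS1 and YARS2 were the 2 synthetase genes called higher at 24 h under library size alone. Exons of YARS2 share 388 bases, 18.1% of its exonic sequence, with a long noncoding RNA gene on the other strand. That gene was not among those tested, and its part in the YARS2 value was not tested.

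MARS2, the methionine enzyme of mitochondria (chr2:197705369-197708395), had a transient course. It was at 9.27, 8.10 and 10.5 CPM at 0 h, 35.8, 36.7 and 27.4 at 6 h, 14.7, 19.4 and 18.7 at 12 h and 7.79 and 9.05 at 24 h. The 6 h libraries were the highest, the 12 h libraries stood between, and the 24 h libraries overlapped those at 0 h. The log2 fold change was 1.84 ± 0.17 (adjusted p = 5.60e-06) at 6 h, 0.92 ± 0.17 (adjusted p = 0.000830) at 12 h and -0.15 ± 0.20 (adjusted p = 0.539) at 24 h in edgeR. Between 6 and 12 h MARS2 fell by 0.92 (adjusted p = 0.0136) and between 12 and 24 h by 1.07 (adjusted p = 0.00359). The first of these calls was kept in 7 of 11 fits that each left out 1 library. Scaled by library size alone, the values against 0 h were 1.52, 0.46 and -1.08, called at 6 h and, as lower, at 24 h.

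EARS2, the glutamate enzyme of mitochondria, was called higher at 6 and 12 h and not called at 24 h. It was at 21.998, 21.0 and 22.1 CPM at 0 h, 45.9, 37.0 and 30.5 at 6 h, 34.0, 45.4 and 39.1 at 12 h and 25.9 and 25.7 at 24 h. All hypoxic libraries, those of 24 h among them, lay above all 0 h libraries. The log2 fold change was 0.80 ± 0.16, 0.86 ± 0.16 and 0.25 ± 0.18 (SE), with adjusted p = 0.00131, 0.000901 and 0.249 in edgeR. Library size alone gave 0.48, 0.40 and -0.66, of which only the last was called, as lower.

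WARS2, the tryptophan enzyme of mitochondria, was lowest at 6 h. It was at 8.53, 8.45 and 9.55 CPM at 0 h, 4.54, 4.05 and 4.49 at 6 h, 6.16, 7.23 and 6.53 at 12 h and 8.26 and 8.61 at 24 h. The 24 h libraries overlapped those at 0 h. It fell by 1.02 at 6 h (adjusted p = 0.000142) and by 0.41 at 12 h (adjusted p = 0.0342) in edgeR, and was at -0.068 at 24 h. Library size alone gave -0.99 at 24 h. The call at 12 h was lost in 5 of 11 fits without 1 library (0 h replicates 1, 2 and 3 and 12 h replicates 1 and 3), with values of -0.35 to -0.44.

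TARS2 and AARS2, the threonine and alanine enzymes of mitochondria, were lower at every time. TARS2 was at 29.5, 28.7 and 30.3 CPM at 0 h, 14.0, 14.1 and 16.2 at 6 h, 18.3, 17.2 and 19.9 at 12 h and 14.9 and 12.6 at 24 h. Its log2 fold change was -0.99945 ± 0.13 (SE, n = 3) at 6 h, -0.68 ± 0.13 (SE, n = 3) at 12 h and -1.10 ± 0.15 (SE, n = 2) at 24 h, where edgeR gave adjusted p = 6.41e-05, 0.00116 and 6.81e-05. AARS2 was at 22.3, 19.5 and 20.8 CPM at 0 h, 11.1, 10.3 and 10.993 at 6 h, 11.4, 16.7 and 14.2 at 12 h and 7.23 and 9.37 at 24 h. Its hypoxic libraries lay below all 0 h libraries, with log2 fold changes of -0.95 ± 0.16, -0.57 ± 0.16 and -1.33 ± 0.19 (SE) and adjusted p = 0.000429, 0.0118 and 9.10e-05 in edgeR. The 12 h value was -0.52 without 0 h replicate 1 and -0.44 without 12 h replicate 1, neither called. TARS2 and AARS2 stayed lower and called with library size alone.

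Further mitochondrial genes were called at some of the times. PARS2 (proline) changed by -0.61, -0.88 and -1.89 and IARS2 (isoleucine) by -0.15, -0.34 and -0.61, both called at 12 and 24 h. The 12 h call of IARS2 was lost in 6 of 11 fits without 1 library (each 0 h and each 12 h library), with values of -0.33 to -0.36. LARS2 (leucine) was at -0.74 at 24 h, called there only. HARS2, the histidine enzyme of mitochondria, was at 32.0, 33.5 and 31.8 CPM at 0 h, 42.7, 34.8 and 36.4 at 6 h, 44.9, 50.7 and 46.9 at 12 h and 56.6 and 51.5 at 24 h, with log2 fold changes of 0.23, 0.55 and 0.74, called at 12 and 24 h. The 24 h value of HARS2 turned with library size alone to -0.16. CARS2, FARS2, NARS2 and RARS2 were called higher at 24 h (0.59, 0.93, 0.45 and 0.45), and each turned with library size alone (-0.36, -0.055, -0.50 and -0.45). NARS2 (asparagine) was also called at 6 h (0.44). The NARS2 call at 6 h was lost without any of the 0 h libraries and without 6 h replicate 1 (0.34 to 0.48), and that at 24 h without any of the 0 h libraries, 12 h replicates 2 and 3 and 24 h replicate 2 (0.28 to 0.49). The RARS2 (arginine) call was lost without any of the 0 h libraries, 12 h replicates 2 and 3 and 24 h replicate 1 (0.31 to 0.51). FARS2 (phenylalanine) at 24 h was 0.57 without replicate 2 and 1.16 without replicate 1.

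SARS2 (serine) and VARS2 (valine) are uncertain. In the annotation, 48.2% and 63.0% of their exonic bases are shared with another gene on the same strand, and their levels were 0.341 to 1.66 CPM and 0.218 to 1.08 CPM. SARS2 was called lower at 6 h (-1.61) and VARS2 at no time against 0 h. For comparison, 14 pseudogenes of the synthetases had at most 2 counts in any library.

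The hexamer CACGTG, an E-box bound by the MYC and USF families whose letters hold the ACGTG of the hypoxia response element, was searched in the same windows. It occurred in 1 of 16 cytosolic windows (IARS1) and 3 of 14 mitochondrial windows, and in 7.43% of all promoters. ACGTG, which overlaps every CACGTG, occurred in 8 of 30 windows and in 21.6% of all promoters. The mitochondrial matches are shown because they include MARS2 and EARS2, which were called higher at 6 and 12 h with TMM. CACGTG is in capitals.
MARS2 (chr2:197705319-197705398, plus strand): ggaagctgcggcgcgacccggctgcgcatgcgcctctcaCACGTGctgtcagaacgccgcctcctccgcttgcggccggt
EARS2 (chr16:23557322-23557401, minus strand): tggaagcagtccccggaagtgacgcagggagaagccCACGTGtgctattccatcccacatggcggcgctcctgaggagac
CARS2 (chr13:110706486-110706565, minus strand): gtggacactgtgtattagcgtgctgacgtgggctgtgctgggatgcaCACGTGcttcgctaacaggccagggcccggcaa

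CARS2 (cysteine), with the same hexamer, was not called at 6 or 12 h (0.12 and 0.26), and YARS2, which rose more than EARS2, has none in its window. IARS1, the cytosolic gene with CACGTG, was called lower at all 3 times (-0.60, -0.55 and -0.72).

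HARS1 and HARS2 start back to back on opposite strands. Their RefSeq starts bound 86 bases at chr5:140691370-140691455, shown in capitals on the plus strand with 30 bases on either side, since both genes were called higher at 12 and 24 h. HARS1 reads to the left and HARS2 to the right.
HARS1 and HARS2 (chr5:140691340-140691485, plus strand): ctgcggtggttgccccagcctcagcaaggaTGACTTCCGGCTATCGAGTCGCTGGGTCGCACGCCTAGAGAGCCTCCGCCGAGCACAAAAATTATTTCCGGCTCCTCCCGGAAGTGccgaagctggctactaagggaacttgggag

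Neither TGATGNAA nor CACGTG occurred in the windows of this pair. The log2 ratio of HARS1 to HARS2 was 0.79, 0.70 and 0.87 at 0 h, 1.21, 1.52 and 1.24 at 6 h, 1.32, 1.12 and 1.26 at 12 h and 1.17 and 1.27 at 24 h. Every hypoxic library lay above every 0 h library, which scaling cannot change.

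Other synthetase genes also share a start region with a gene on the other strand. In GENCODE, 15 such pairs with starts within 1000 bases include a synthetase gene. Both genes were called in the same direction in 5, 5 and 4 pairs at 6, 12 and 24 h and in opposite directions in 1, 1 and 0. Only 1 gene was called in 7, 6 and 8 pairs, neither in 1, 2 and 2, and 1 partner was not tested. The opposite pairs were SARS2 with MRPS12 at 6 h (-1.61 and 0.92) and TARS1 with TARS1-DT at 12 h (0.60 and -1.15). Levels were low for SARS2 (0.341 to 1.66 CPM, with 48.2% of its exonic bases shared) and TARS1-DT (0.068 to 0.51 CPM). TARS1 was not called at 12 h with library size alone (0.13). Of all tested genes 52.8%, 51.2% and 61.2% were called, and the share over other gene pairs was not computed. UBFD1, whose start is 10 bases from that of EARS2, was called higher at all 3 times (1.73, 1.57 and 1.17), and at 6 and 12 h with library size alone. TERF2IP, beside KARS1, was also higher at all 3 times (0.55, 0.65 and 0.61), with no call under library size alone (0.24, 0.17 and -0.29). WARS2-AS1, an antisense transcript at WARS2, was lower at all 3 times (-1.69, -2.36 and -3.27), while WARS2 was not called at 24 h. LYRM4, beside FARS2, was higher at all 3 times (0.80, 0.92 and 1.86), while FARS2 was called at 24 h. Reads from overlapping exons on opposite strands cannot be told apart where strand was not used in counting.

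The balance between the compartments was then read within libraries, where scaling cancels. Each cytosolic gene with a mitochondrial counterpart was set against it by amino acid (TARS3, GARS1, KARS1 and QARS1 were not paired), with EPRS1 set against both EARS2 and PARS2, and FARSA and FARSB each against FARS2, which gives 18 pairs. At 6 h all libraries lay above those of 0 h in 7 pairs, below in 8, and overlapped in 3. At 12 h the counts were 8, 8 and 2, and at 24 h 7, 5 and 6. These counts are a description, and the ratios were not tested. The share of other gene pairs whose ratios separate was not computed. Of all single genes tested, 52.8%, 51.2% and 61.2% were called at the 3 times, so the counts are not read as a result about the compartments.

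**Figure D4:**
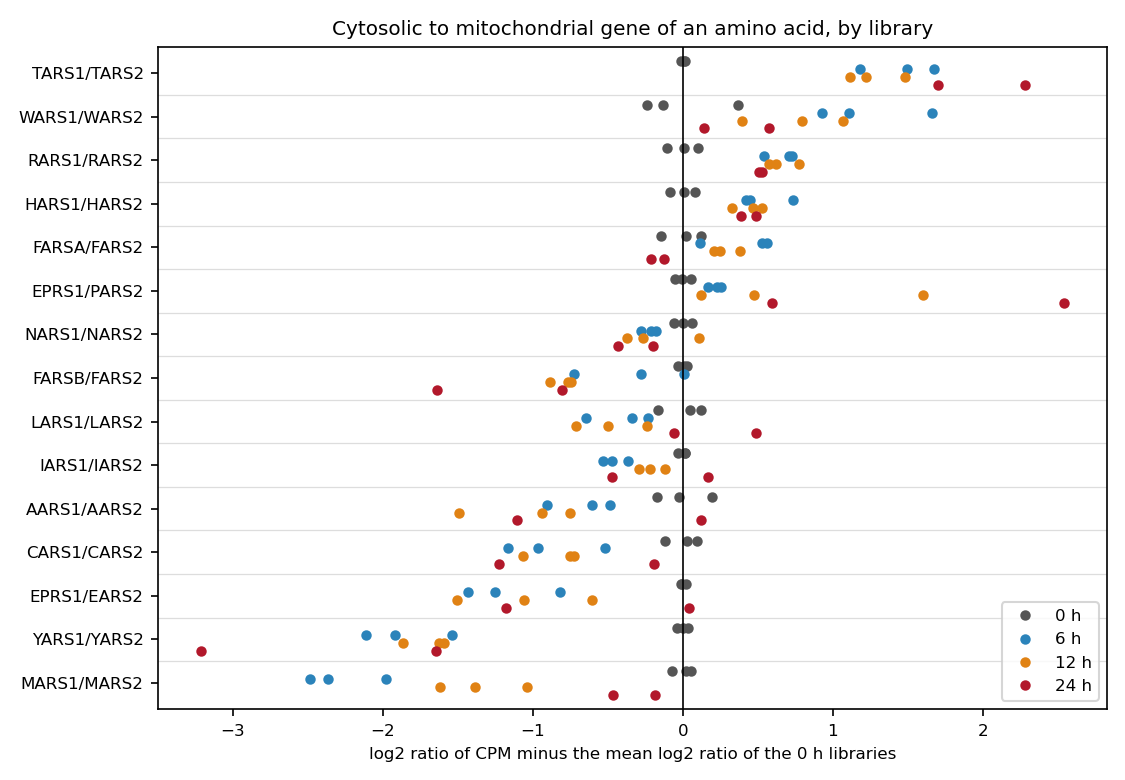
Log2 ratio of the CPM of a cytosolic gene to that of its mitochondrial counterpart in every library (points), minus the mean ratio of the 0 h libraries (SARS1/SARS2 and VARS1/VARS2 are among the pairs left out, for their shared exons). MARS1/MARS2 lies farthest below 0 at 6 h and moves back towards 0 by 24 h, while YARS1/YARS2 stays below 0 and TARS1/TARS2 above it.

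Methionine, tyrosine and threonine show the range of courses. MARS1/MARS2 had log2 ratios of 4.15, 4.12 and 4.02 at 0 h, 1.61, 1.73 and 2.12 at 6 h, 3.06, 2.48 and 2.71 at 12 h and 3.91 and 3.63 at 24 h. It was thus lowest at 6 h and near the 0 h range at 24 h. YARS1/YARS2 had 3.88, 3.84 and 3.90 at 0 h, 1.76, 1.95 and 2.33 at 6 h, 2.28, 2.01 and 2.24 at 12 h and 2.23 and 0.66 at 24 h, and did not return. TARS1/TARS2 moved the other way, from 2.76, 2.74 and 2.76 at 0 h to 4.42, 4.25 and 3.93 at 6 h, 4.23, 3.98 and 3.86 at 12 h and 5.03 and 4.45 at 24 h. For threonine the cytosolic gene was higher at 12 and 24 h, though not with library size alone, and the mitochondrial gene lower, and for tyrosine and methionine the cytosolic gene was lower and the mitochondrial gene higher at 6 and 12 h.

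Summed over the family, the mitochondrial genes overlapped between times. Their summed CPM (with TMM) was 450.0 to 460.3 at 0 h, 442 to 480 at 6 h, 441 to 457 at 12 h, and 429 and 493 at 24 h. The cytosolic genes summed to 3678 to 3752 CPM at 0 h, 2972 to 3169 at 6 h, 3069 to 3825 at 12 h, and 4549 and 3338 at 24 h. The 6 h libraries lay below those at 0 h, and the 24 h libraries lay on either side. Without AARS1 the cytosolic sum was 3184 to 3232 CPM at 0 h and 2802 to 2973 CPM at 6 h.

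Neither the enzyme class nor the multisynthetase complex went one way. Of 8 complex enzymes, among them EPRS1, KARS1 and QARS1, 2 were higher and 2 lower at 6 h, and 3 higher and 2 lower at 12 and at 24 h (0, 1 and 1 higher and 2, 2 and 4 lower with library size alone). Of its scaffold genes, EEF1E1 was higher at 6 and 24 h (0.81 and 1.57), AIMP1 higher at 24 h (0.53) and AIMP2 lower at 6 h (-0.55). No scaffold gene was called higher with library size alone. That scaling called AIMP1 lower at 6 and 12 h (-0.44 and -0.59) and AIMP2 lower at all 3 times (-0.88, -0.62 and -0.77). It turned the 24 h value of AIMP1 to -0.43, which was not called. Of 18 class I genes, 4, 5 and 5 were higher and 5, 6 and 4 lower at the 3 times. Of 19 class II genes, 3, 5 and 8 were higher and 6, 6 and 5 lower. The background with TMM was 24.2% to 29.9% of all tested genes higher and 27.1% to 31.3% lower. Under library size alone 2, 1 and 1 class I genes and 0, 2 and 1 class II genes were higher, and 6, 6 and 12 class I genes and 9, 7 and 10 class II genes were lower.

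Human mitochondria have no glutamine synthetase of this family: EARS2 charges the glutamine tRNA with glutamate, and an amidotransferase of QRSL1, GATB and GATC converts it. GATC was at 11.7, 12.4 and 13.1 CPM at 0 h, 29.5, 26.4 and 25.2 at 6 h, 27.4, 29.2 and 29.9 at 12 h and 33.7 and 54.7 at 24 h, and rose by 1.12, 1.22 and 1.83 on the log2 scale. QRSL1, the catalytic subunit, was at 25.4, 25.9 and 29.4 CPM at 0 h, 11.8, 11.3 and 13.3 at 6 h, 19.5, 18.1 and 18.3 at 12 h and 14.7 and 12.5 at 24 h, and fell (-1.15, -0.53 and -0.98). GATB was called at 6 h only with TMM (-0.43), while library size alone gave -0.74, -0.61 and -0.91, all called lower. GATC and QRSL1 thus went in opposite directions at all 3 times, also with library size alone. MTFMT, which formylates the initiator methionyl-tRNA that MARS2 charges, was lower at 6 and 12 h (-1.07 and -0.72), when MARS2 was higher.

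Of 5 genes of mitochondrial tRNA processing, 3 were higher at 6 h, 3 at 12 h and 2 at 24 h, and 0 lower (2, 1 and 1 higher and 0, 0 and 2 lower with library size alone). Of 8 mitochondrial translation factors, 3 were higher and 2 lower at 6 h, 3 higher and 1 lower at 12 h, and 5 higher and 1 lower at 24 h (1, 2 and 2 higher and 3, 2 and 4 lower with library size alone). Over all tested genes the shares with TMM were 24.2% to 29.9% higher and 27.1% to 31.3% lower, and these short lists were not tested against them. TUFM, the mitochondrial elongation factor that carries charged tRNA to the ribosome, rose by 0.48, 0.81 and 1.62, of which the values at 12 and 24 h were also called with library size alone. Selenocysteine is made on a tRNA that SARS1 first charges with serine. SEPSECS, the last enzyme of that route, fell (-2.32, -1.60 and -2.04), from 16.6 to 17.9 CPM at 0 h down to between 2.69 and 6.44 CPM in the hypoxic libraries. Of 3 genes that clear mischarged tRNA outside the family, DTD2 was lower at all 3 times (-1.04, -0.76 and -1.0004) and AARSD1, which removes serine from alanine tRNA, at 12 and 24 h (-0.94 and -1.84). Both had low levels, at 0.986 to 2.85 CPM for DTD2 and 0.218 to 1.60 CPM for AARSD1. DTD1, at 9.72 to 18.0 CPM, was not called at any time with TMM, and its 24 h libraries lay above those of 0 h. With library size alone DTD1 was called lower at all 3 times (-0.44, -0.54 and -0.59).

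Changes between neighbouring times were fewer. From 6 to 12 h, 1 mitochondrial gene was lower (MARS2) and 1 higher (WARS2, whose call was kept in 2 of 11 fits without 1 library), while 0 of 21 cytosolic genes were called by edgeR, limma-voom or DESeq2, with 4 at an unadjusted p under 0.05 in edgeR. The background was 4.95% of all tested genes, 1.88% higher and 3.07% lower. From 12 to 24 h, KARS1 (0.78 ± 0.15, adjusted p = 0.00405 in edgeR) and QARS1 (0.65 ± 0.16, adjusted p = 0.00956 in edgeR) were the 2 cytosolic genes called, both higher, and neither was called with library size alone. Of the mitochondrial genes, YARS2 and FARS2 were higher and AARS2, EARS2, LARS2, MARS2, PARS2 and VARS2 lower. The background was 28.4%, with 15.1% higher and 13.3% lower. These counts depend on single libraries. Without 24 h replicate 2, 8 cytosolic genes were higher and 0 lower from 12 to 24 h, and without replicate 1, 3 were higher and 4 lower. From 6 to 12 h, leaving out 24 h replicate 1 or 2 gave 4 cytosolic genes, all higher.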

How the data were processed

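RNA from RWPE1 cells was sequenced in 11 libraries. Per the labels and the study's methods, reads were trimmed with Trimmomatic, aligned to GRCh38 (hg38) with STAR and counted per gene with featureCounts, and the authors deposited these raw counts, unscaled, in one table with 0 columns of no sample. How the counting treated strand and reads with several matches is not given in the sources used here.

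Counts of 19981 genes that passed edgeR's filterByExpr (minimum count 10, minimum total 15) were scaled with TMM and fitted with edgeR 4.0.16 (R 4.3.3) quasi-likelihood models over all 11 libraries with time as factor, and p-values were adjusted by the Benjamini-Hochberg method over all tested genes. The biological coefficient of variation was 19.55%. Levels are CPM on this scale. RPKM divides them by the length of the canonical transcript in GENCODE release 44, which held 60357 of the 60676 gene identifiers. Depth was 27496009 to 49488345 counts per library, and intervals were not needed since values are given per library.

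Alternatives were DESeq2 1.42.0, limma-voom (limma 3.58.1), median-of-ratios size factors, library size alone, 2 other filters on low counts, a fit of only the compared times, the replicate number as a block, each library left out in turn, and GARS1 and KARS1 left out. Leaving out SARS2 and VARS2 was added after seeing the data. The replicate numbers of the titles did not pair libraries, since the correlations of same-numbered libraries' deviations from their group means ran from -0.16 to 0.21.

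The members and gene lists were chosen with earlier results of these data known. Genes were described in every library when called in 1 direction at all 3 times (the 6 with the largest average change per compartment), when called in opposite directions in 2 comparisons (up to 4), or for their role (EPRS1, QARS1, GARS1, KARS1, WARS1, TARS3, HARS1, HARS2). The fits were tested on simulated data. Protein sequences were not analysed here, and some members are counted but not reported singly here. Scripts used Python 3.11.15 with pandas 2.3.3, numpy 2.4.6 and matplotlib 3.10.9.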

Additional observations from a re-analysis of the deposited data

Results flagged for a closer look

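For 11 of the 38 synthetase genes the change against 0 h differed between neighbouring times, as tested by the contrast of these times in the edgeR fit. From 6 to 12 h 1 of 38 was higher and 1 lower, and from 12 to 24 h 4 were higher and 6 lower. These shares are near the 4.95% and 28.4% of all tested genes called, so the counts do not set the family apart. Between 6 and 12 h MARS2 differed by -0.92 (adjusted p = 0.0136, lower in 3 of 3 libraries) and WARS2 by 0.60 (adjusted p = 0.0417, higher in 3 of 3 libraries) on the log2 scale. The WARS2 call was kept in 2 of 11 fits without 1 library, those without a 24 h library (0.53 to 0.66 over all 11), and was lost with library size alone, with no filter and with the replicate block. The MARS2 call was kept in 7 of 11, and was lost without 6 h replicate 1 or 2 and 12 h replicate 2 or 3 (-1.04 to -0.81 over all 11).

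Between 12 and 24 h, 4 genes were higher: YARS2 by 1.20 (adjusted p = 0.00473), KARS1 by 0.78 (adjusted p = 0.00405), FARS2 by 0.78 (adjusted p = 0.0146) and QARS1 by 0.65 (adjusted p = 0.00956), all by edgeR's quasi-likelihood test. YARS2 was at 0.53 without 24 h replicate 2 and at 1.64 without replicate 1, both called. FARS2 was at 0.43, not called, without 24 h replicate 2 and at 1.04 without replicate 1, and its call was also lost without 12 h replicate 2. The calls of FARS2, KARS1 and QARS1 were lost with library size alone. The other 6 were lower: LARS2 by -1.12 (adjusted p = 0.00282), MARS2 by -1.07 (adjusted p = 0.00359), PARS2 by -1.01 (adjusted p = 0.0285), AARS2 by -0.77 (adjusted p = 0.0122), EARS2 by -0.615 (adjusted p = 0.0264) and VARS2 by -1.19 (adjusted p = 0.0441, with 63.0% of its exonic bases shared with another gene). VARS2 was at -0.71 without 24 h replicate 2 and at -2.07 without replicate 1, and was called in 2 of 11 fits without 1 library, those without 12 h replicate 3 and without 24 h replicate 1. The PARS2 call was lost without 12 h replicates 2 or 3 and 24 h replicate 1 (-1.41 to -0.70 over all 11 fits), and that of EARS2 without 12 h replicates 2 or 3 and 24 h replicate 2 (-0.71 to -0.51). With only the compared times fitted in edgeR, none of these 10 genes was called, though each had an unadjusted p under 0.05. No group held enough libraries for a test of single samples that stand apart.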

How the results depend on the processing

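Against 0 h, the numbers of cytosolic and mitochondrial genes called stayed within 1.5 times the values above under every alternative run except 1: without 0 h replicate 1, 7 cytosolic genes were called at 12 h (range 7 to 12 over the libraries left out). Over the single genes and the 3 comparisons with 0 h, 1986 of 2163 alternative values kept direction and call, 71 gained a call, 95 lost it and 11 reversed. All 11 reversals came with library size alone: CARS2 -0.36, EARS2 -0.66, FARS2 -0.055, FARSA -0.23, HARS2 -0.16, NARS1 -0.79, NARS2 -0.50, RARS2 -0.45, SARS1 -0.43 and TARS3 -0.77 at 24 h, and FARSA -0.044 at 12 h. Of all tested genes called at 6, 12 and 24 h, 27.6%, 20.0% and 16.4% were higher with library size alone, against 47.6%, 47.2% and 48.8% with TMM.

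Comparisons of neighbouring times depended most on the processing, and the cause was not tested. From 6 to 12 h, the cytosolic count of 0 became 1 with only the compared times and 0 to 4 with 1 library left out. The mitochondrial count of 2 became 1 with library size alone, with no filter and with the replicate block, and 0 to 5 with 1 library left out. Of all genes, 989 were called, against 1922 by DESeq2, 1674 with no filter, 1820 with only the compared times, 510 with the replicate block and 61 to 3690 with 1 library left out. From 12 to 24 h, the cytosolic count of 2 became 0 with library size alone and with only the compared times, 1 without GARS1 and KARS1, and 2 to 8 with 1 library left out. The mitochondrial count of 8 became 0 with only the compared times (8 at an unadjusted p under 0.05) and 4 to 10 with 1 library left out, with 4 without 12 h replicate 2 and 5 without 24 h replicate 2. Of all genes 5668 were called, against 0 with only the compared times in edgeR (5928 at an unadjusted p under 0.05) and 3051 to 9429 with 1 library left out.

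The replicate block changed the count against 0 h by less than 1.5 times, to 9 cytosolic and 10 mitochondrial genes at 6 h, 12 and 9 at 12 h, and 11 and 10 at 24 h. Where a 24 h library was left out, the other was assumed to vary like the other groups. Oxygen and HEPES changed together and cannot be told apart, 24 h has 2 libraries that stand apart from each other, and SARS2 and VARS2 were at most at 1.66 CPM.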

Other observations

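Genes that act on the same tRNAs gave further values. Of 5 selenocysteine genes, 0 were called higher and 2, 2 and 1 lower at 6, 12 and 24 h (0 higher and 3, 5 and 4 lower with library size alone). EEFSEC, the elongation factor for selenocysteine, was at 10.0, 8.77 and 8.92 CPM at 0 h, 1.54, 2.98 and 3.66 CPM at 6 h, 4.90, 5.10 and 5.60 CPM at 12 h and 6.29 and 5.50 CPM at 24 h. It fell by 1.74 at 6 h and by 0.83 at 12 h (edgeR adjusted p = 0.000113 and 0.0131), and at 24 h it was at -0.64 and not called. Library size alone gave EEFSEC -1.54 at 24 h, called lower. Of 4 kinases of eIF2, 1, 1 and 0 were higher and 1, 1 and 1 lower, and library size alone left 1, 0 and 0 higher and 1, 1 and 3 lower. The background with TMM was 24.2% to 29.9% of all tested genes higher and 27.1% to 31.3% lower.

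Of the mitochondrial RNase P proteins, which free tRNAs from the mitochondrial transcript, TRMT10C and HSD17B10 were called higher at all 3 times with TMM. PRORP, another of these proteins, was at 6.10, 6.00 and 6.16 CPM at 0 h and 7.49 and 5.12 CPM at 24 h. With library size alone PRORP was at -0.16, -0.20 and -0.81 at 6, 12 and 24 h, called lower at 24 h. TRMT10C was at 15.04, 13.8 and 15.8 CPM at 0 h, 42.4, 32.3 and 32.9 CPM at 6 h, 23.5, 24.5 and 22.7 CPM at 12 h and 21.7 and 52.8 CPM at 24 h, so that the 24 h libraries differed from each other by more than the libraries of any other time. With library size alone its values were 0.95, 0.20 and 0.27, of which only the first was called. HSD17B10 was higher by 0.81, 1.10 and 1.69 (edgeR adjusted p = 0.00245, 0.000379 and 1.83e-05) and was called at all 3 times with library size alone as well. MTRF1L, a mitochondrial release factor, was at 8.90, 9.09 and 9.64 CPM at 0 h and between 19.9 and 34.1 CPM in the hypoxic libraries, and was also called higher at all 3 times with either scaling.

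The 13 cytosolic genes outside the multisynthetase complex were called higher in 1, 3 and 4 cases and lower in 4, 4 and 1 at 6, 12 and 24 h. Among the 20 genes whose promoter window held neither TGATGNAA nor CACGTG, 4, 6 and 10 were higher and 4, 5 and 4 lower. Library size alone made these 0, 2 and 1 higher and 8, 6 and 9 lower. With TMM, 24.2% to 29.9% of all tested genes were called higher at the 3 times and 27.1% to 31.3% lower.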
